A study of Drosophila melanogaster with 37 samples.

Results

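Maternal axis and germ plasm genes are the genes whose products a mother loads into the egg to set up the head-tail and back-belly axes of the embryo and to form its germ cells. The 10 genes described here were chosen by name, with earlier results of these data known. They are oskar (osk), nanos (nos), bicoid (bcd), gurken (grk), orb, staufen (stau), exuperantia (exu), swallow (swa), germ cell-less (gcl) and polar granule component (pgc). All 10 were found among the 17559 genes of the tables. Their mRNA levels were compared in 12 libraries of polyadenylated RNA (PolyA) from Drosophila melanogaster, 2 replicates of each of 6 groups: ovary, testis, female body, male body, female head and male head. The flies were young adults of the isogenic wild-type strain Canton-S, with no transgene or treatment in any group. The study's methods define testis as the whole inner male reproductive system, accessory glands included, and they list the body beside ovary and testis among the parts that adults were dissected into. They do not state separately whether the body libraries were free of gonads. The study set out to compare RNA between the sexes in each tissue. No source says that the replicates came from separate cultures, so that p-values measure only the spread between these libraries, which may be technical.

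During oogenesis, nurse cells make these mRNAs and pass them to the oocyte. In the oocyte, bcd mRNA is localised at the anterior end, osk and nos mRNA at the posterior end and grk mRNA next to the nucleus. RNA-binding proteins take part in this, and translation of osk mRNA is held back until the mRNA is in place. Oskar protein assembles the germ plasm, the posterior cytoplasm from which the germ cells of the next generation form. On dm6, the tables place osk at 3R:8935126-8938395 (+ strand), nos at 3R:19157238-19160202 (+ strand), bcd at 3R:6755842-6759466 (- strand), orb at 3R:23260610-23280856 (- strand), stau at 2R:18117896-18125779 (- strand), exu at 2R:20667427-20671083 (- strand), gcl at 2R:8724258-8728999 (+ strand), pgc at 2R:22330200-22332813 (+ strand), grk at 2L:8431086-8433598 (- strand) and swa at X:6363418-6365708 (- strand). The coordinates of all 10 in the tables equalled those of Ensembl release 115, and exons covered between 1212 bases for pgc and 9551 bases for orb.

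Levels are given in TPM, the share of a gene in all transcripts of a library after division by transcript length, scaled here to a sum of 1000000 over the genes that are not on the mitochondrial genome. The rescaling was used because 37 mitochondrial genes took between 1.06 and 60.5% of the deposited TPM, most of it in mt:ATPase8, which was listed at 0 in replicate 2 of ovary, testis, female body and male body. Marker genes were high in the tissues that the labels name. The summed level of 8 eggshell and yolk-uptake genes was 47540 and 62660 TPM in the ovary libraries, against 64.3 and 39.1 TPM in the testis libraries, and it was 34830 and 62840 TPM in female bodies, against 217 and 152 TPM in male bodies. The summed level of 8 spermatogenesis genes was 9807 and 8816 TPM in testis and 4549 and 3289 TPM in male bodies. That of 5 accessory gland genes was 15720 and 16000 TPM in testis and 8300 and 6231 TPM in male bodies. In such bulk samples, fewer cells of a type and less RNA per cell cannot be told apart. Fold changes were tested with limma on log2(TPM + 1), a scale that understates the changes of low genes, over 13332 genes with a mean of at least 1 TPM, and a gene was called when its p-value, adjusted by the Benjamini-Hochberg method over all of them, was under 0.05. All 10 members passed that minimum.

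**Figure D1:**
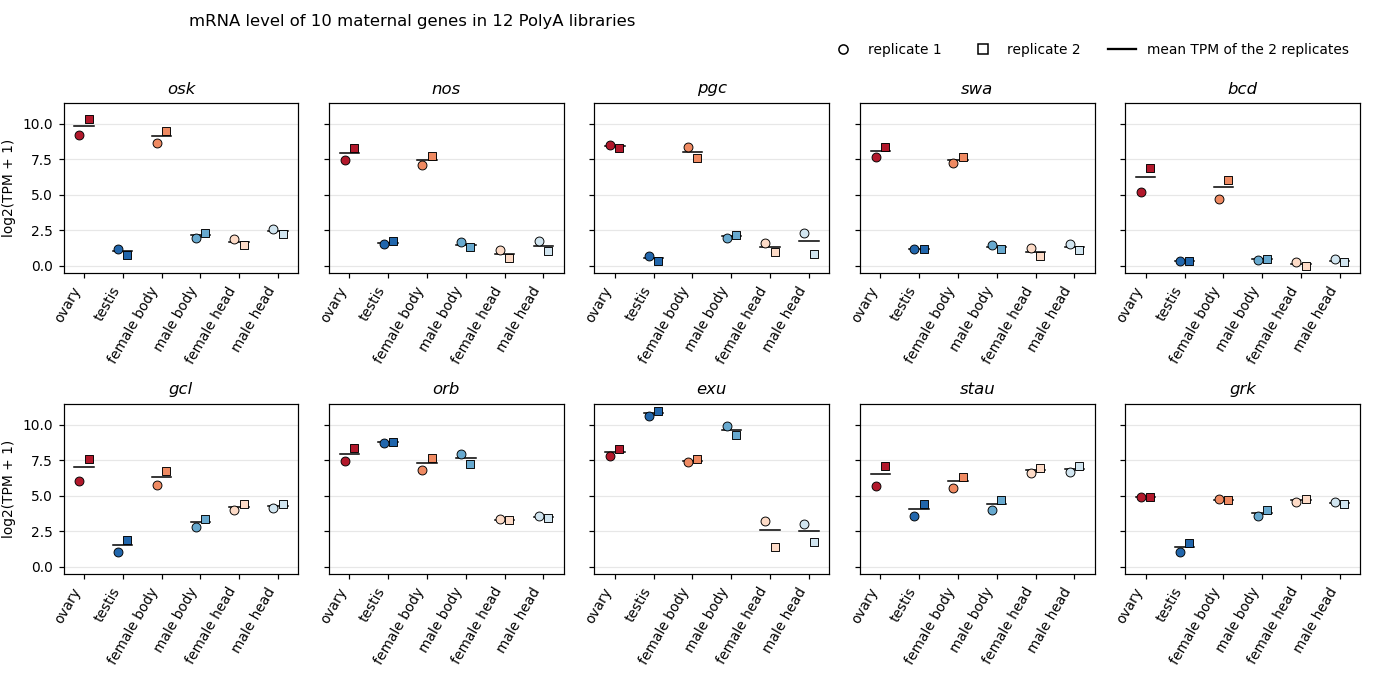
The level of each member, as log2(TPM + 1), in 12 PolyA libraries. Circles are replicate 1, squares replicate 2, and the line is the mean TPM of the 2 replicates; osk, nos, pgc, swa and bcd are high only in ovary and female body among the 6 groups, whereas exu is highest in testis at 1601 and 1973 TPM, and stau overlaps between heads and ovary.

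The determinant transcripts osk, nos and bcd were high in the ovary and the female body and low in the other 4 groups. The level of osk was 606 and 1267 TPM in the ovary libraries, against 1.30 and 0.724 TPM in the testis libraries. It was 406 and 721 TPM in female bodies, against 2.95 and 3.88 TPM in male bodies, and 2.74 and 1.76 TPM in female heads, against 5.09 and 3.60 TPM in male heads. Ovary and female body overlapped, as did male head and male body, and testis lay below every other library. The log2 fold change of osk was 8.78 ± 0.41 (SE) in ovary over testis (limma, adjusted p = 3.2e-07) and 6.95 ± 0.41 in female over male body (adjusted p = 1.9e-06). Among the 10 members, osk was the most abundant in ovary and in female body.

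Nanos protein represses translation of hunchback mRNA in the posterior of the embryo. Its mRNA stood at 174 and 315 TPM in the ovary libraries, against 1.82 and 2.32 TPM in testis, and at 137 and 217 TPM in female bodies, against 2.11 and 1.49 TPM in male bodies. Female heads had 1.12 and 0.447 TPM of nos, and male heads had 2.27 and 1.01 TPM. No library of testis, male body or either head exceeded 2.32 TPM, and the ranges of testis, male body and male head overlapped. The log2 fold change was 6.26 ± 0.39 in ovary over testis (limma, adjusted p = 7.1e-07) and 5.96 ± 0.39 in female over male body (adjusted p = 2.5e-06). The nos gene overlaps CG11779 on the opposite strand over 2641 bases, and the PolyA libraries are not stated to keep strand. CG11779 had 55.0 and 81.5 TPM in ovary, 158 and 197 TPM in testis and between 27.2 and 39.3 TPM in heads. How many of the reads listed under nos belong to CG11779 was not tested.

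Bicoid, the homeodomain protein that patterns the anterior of the embryo, had the lowest mRNA level of the ovary-restricted transcripts. The level of bcd was 35.9 and 117 TPM in the ovary libraries, against 0.260 and 0.260 TPM in testis, and 24.98 and 65.4 TPM in female bodies, against 0.346 and 0.383 TPM in male bodies. It was 0.223 TPM in replicate 1 and listed at 0 in replicate 2 of the female head, against 0.374 and 0.170 TPM in male heads. The depth behind the low values was small, since the deposited mean coverage per base of bcd was 1.92 and 1.29 in testis, against 151 and 263 in female bodies. As log2 fold changes, these differences were 5.71 ± 0.54 in ovary over testis (limma, adjusted p = 8.6e-06) and 4.93 ± 0.54 in female over male body (adjusted p = 3.7e-05). Replicate 2 of the ovary held 3.25 times the bcd level of replicate 1, the widest ratio of the 10 members in that tissue.

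The germ cell factors pgc and gcl differed from each other outside the ovary. Pgc is a small protein that blocks transcription in the newly formed germ cells. Its mRNA had 372 and 307 TPM in the ovary libraries, against 0.644 and 0.246 TPM in testis, and 329 and 188 TPM in female bodies, against 2.94 and 3.54 TPM in male bodies. In heads the pgc level was 2.09 and 0.907 TPM in females and 3.96 and 0.771 TPM in males. On the log2 scale the fold change was 7.89 ± 0.49 in ovary over testis (limma, adjusted p = 6.6e-07) and 5.89 ± 0.49 in female over male body (adjusted p = 6.4e-06). Of its annotated span, 1873 bases overlap T3dh on the opposite strand. T3dh had 0.754 and 0.954 TPM in testis, 5.27 and 6.03 TPM in male bodies and between 3.94 and 6.27 TPM in heads. It lay above pgc in each of these libraries. How many of the reads listed under pgc belong to T3dh was not tested.

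Gcl, a BTB-domain protein needed to form the germ cells, was not restricted to the ovary. The gcl level was 64.7 and 188 TPM in the ovary libraries, against 1.08 and 2.62 TPM in testis, and 52.6 and 106 TPM in female bodies, against 5.89 and 9.33 TPM in male bodies. Heads held 14.6 and 20.2 TPM in females and 16.4 and 19.8 TPM in males, above both male body libraries and both testis libraries. As log2 fold changes, these differences were 5.35 ± 0.54 in ovary over testis (limma, adjusted p = 1.3e-05), 3.16 ± 0.54 in female over male body (adjusted p = 0.0007) and 2.62 ± 0.54 in ovary over female head (adjusted p = 0.0023).

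Of the RNA-binding and RNA-localising factors, exu and orb were high in the gonads and bodies of both sexes and low in heads, whereas stau was high in heads as well. Swallow, which helps to keep bcd mRNA at the anterior cortex of the oocyte, followed osk, nos and bcd. Its mRNA had 202 and 337 TPM in the ovary libraries, against 1.29 and 1.24 TPM in testis, and 151 and 197 TPM in female bodies, against 1.70 and 1.25 TPM in male bodies. Between 0.613 and 1.85 TPM was present in the heads of both sexes. The log2 fold change was 6.85 ± 0.32 in ovary over testis (limma, adjusted p = 3.2e-07) and 6.14 ± 0.32 in female over male body (adjusted p = 1.7e-06).

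Exuperantia, needed for the first step of bcd mRNA localisation, was the member that was lower in females. The exu level was 218 and 319 TPM in the ovary libraries, against 1601 and 1973 TPM in testis, and 161 and 191 TPM in female bodies, against 944 and 624 TPM in male bodies. It was 8.30 and 1.63 TPM in female heads, against 6.97 and 2.36 TPM in male heads. Neither the gonads nor the bodies overlapped between the sexes, and exu was the most abundant of the 10 members in testis and male body. As log2 fold changes, these differences were -2.75 ± 0.59 in ovary over testis (limma, adjusted p = 0.002) and -2.12 ± 0.59 in female over male body (adjusted p = 0.012). The gene overlaps CG30152 on the opposite strand over 448 bases. CG30152 had 103 and 74.1 TPM in ovary, 38.2 and 49.5 TPM in testis and between 94.0 and 160 TPM in heads. Its part in the reads listed under exu was not tested. The exu call in bodies was lost without replicate 1 of the female body (adjusted p = 0.052) or without replicate 1 of the male body (adjusted p = 0.073).

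Orb, an RNA-binding protein of the CPEB family that activates translation of osk and other mRNAs in the oocyte, was abundant in the gonads of both sexes. The orb level was 173 and 322 TPM in the ovary libraries, against 414 and 447 TPM in testis, and 113 and 197 TPM in female bodies, against 245 and 150 TPM in male bodies. Heads had 8.998 and 8.54 TPM in females and 10.7 and 9.66 TPM in males. The 2 testis libraries lay above the 2 ovary libraries, but the log2 fold change of -0.86 ± 0.37 was not called (limma, adjusted p = 0.063). It was called with FPKM (log2 fold change of -1.19, adjusted p = 0.0079), with scaling by the median of ratios (-2.49, adjusted p = 0.00015) and without replicate 2 of the ovary (-1.31, adjusted p = 0.017). In bodies the sexes overlapped and the log2 fold change was -0.35 ± 0.37 (adjusted p = 0.43), against -1.23 (adjusted p = 0.011) with the median of ratios.

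Staufen, a protein that binds double-stranded RNA and moves with osk and bcd mRNA, also works in neuroblasts of the fly. The stau level was 49.4 and 135 TPM in the ovary libraries, against 10.8 and 20.0 TPM in testis, and 46.1 and 80.04 TPM in female bodies, against 15.0 and 25.1 TPM in male bodies. Female heads held 94.5 and 123 TPM and male heads 101 and 137 TPM, so that both heads overlapped with the ovary. The log2 fold change was 2.40 ± 0.51 in ovary over testis (limma, adjusted p = 0.0021) and 1.60 ± 0.51 in female over male body (adjusted p = 0.024). With the median of ratios they were 0.83 (adjusted p = 0.075) and 0.74 (adjusted p = 0.11), and the body call was also lost with TPM as deposited and without replicate 2 of the female body or replicate 1 of the male body (adjusted p = 0.14 in each case).

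Gurken, the TGF-alpha-like ligand that the oocyte sends to the Egfr receptor of the follicle cells, was close to level in 4 of the 6 groups. The grk level was 29.1 and 28.4 TPM in the ovary libraries, against 1.07 and 2.12 TPM in testis, and 26.0 and 24.3 TPM in female bodies, against 11.1 and 14.8 TPM in male bodies. It was 22.9 and 26.7 TPM in female heads, against 22.7 and 20.6 TPM in male heads. Ovary, female body and the heads of both sexes thus lay between 20.6 and 29.1 TPM, and testis was the only group under 10 TPM. As log2 fold changes, these differences were 3.55 ± 0.26 in ovary over testis (limma, adjusted p = 1.8e-06) and 0.92 ± 0.26 in female over male body (adjusted p = 0.014). The body call did not hold with the median of ratios (0.09, adjusted p = 0.75), with TPM as deposited (0.97, adjusted p = 0.15) or without replicate 1 of the female body (adjusted p = 0.059) or of the male body (adjusted p = 0.097). The gene overlaps Akap200 on the opposite strand over 212 bases, and Akap200 had 579 and 756 TPM in ovary, 163 and 285 TPM in testis and between 175 and 250 TPM in heads. How many of the reads listed under grk belong to Akap200 was not tested.

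Across the 10 members, 8 were higher in ovary than in testis, where 39.3% of all genes tested were higher, and 1 was lower, where 33.3% were lower. The median log2 fold change of the members was 5.53, beside 0.10 over all genes. In bodies 8 members were higher in females (27.5% of all genes) and 1 was lower (32.3%), with a median of 4.05 beside -0.09 over all genes. These are the same 8 and the same 1 in both tissues. Because the members were chosen with earlier results of these data known, the shares of all genes do not test for an excess. The body libraries also held the marker genes of the gonads of their sex, and the part of gonad RNA in the body values was not tested. Scaling by the median of ratios shifted the median of all genes to -0.81 in gonads and -0.83 in bodies. With that scaling, 7 members were higher and 2 were lower in ovary than in testis, and 6 were higher and 2 were lower in female than in male bodies. Of 13584 genes tested with that scaling, 2583 were higher and 6916 lower in gonads, and 1992 were higher and 6981 lower in bodies. Without single libraries, between 6 and 8 members were higher in female bodies.

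**Figure D2:**
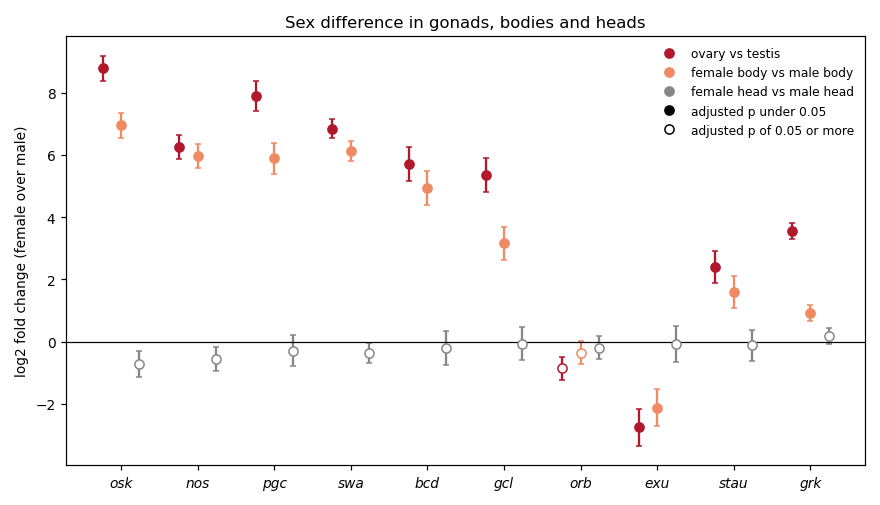
The log2 fold change of each member, female over male, in gonads, bodies and heads. Points are limma estimates with their SE and filled points have an adjusted p under 0.05; 8 members lie above 0 in gonads and bodies, exu lies below 0 at -2.75 and -2.12, and in heads every estimate lies between -0.72 and 0.19.

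In heads no member was called between the sexes. Of the 10, 0 were higher and 0 were lower in female heads by limma, and 0 had an unadjusted p under 0.05; over all genes, 0.0975% were higher, 0.09% were lower and 385 had an unadjusted p under 0.05. Fold changes in heads lay between -0.72 and 0.19 on the log2 scale, with an SE of 0.26 to 0.59. A p above the threshold does not show that the sexes are equal. For bcd, nos, swa and pgc, which are low in heads, log2(TPM + 1) understates the fold changes, so the test says little about them. The estimate was -0.20 for bcd and -0.55 for nos, where the ratios of mean TPM were 0.41 and 0.48. With a pseudocount of 0.1 no member was called either. For osk the 2 female head libraries, at 2.74 and 1.76 TPM, lay below the 2 male head libraries, at 5.09 and 3.60 TPM. The unadjusted p of osk was 0.12 (limma). Female and male heads also did not overlap for orb, lower in females, and for grk, higher in females. The share of all genes that separate in this way was not counted. The summed level of the eggshell and yolk-uptake genes was 126 and 124 TPM in female heads, against 345 and 254 TPM in male heads. Of these 8 genes, 1, Vm26Ab, was listed at 0 in each head library. The part of RNA from outside the head in these values was not tested.

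Whether the sex difference was larger in one tissue than in another was tested directly. Bodies minus heads, the difference was called for osk (7.67), nos (6.51), swa (6.49), pgc (6.17), bcd (5.12) and gcl (3.23) on the log2 scale, each with an adjusted p of 0.0065 or less by limma, and 46.5% of all genes were called in either direction. In the fit blocked by replicate number, stau (1.72, adjusted p = 0.0031 against 0.082 without the block) and exu (-2.06, adjusted p = 0.04 against 0.07 without the block) were called as well. The call of gcl was lost with TPM as deposited (3.28, adjusted p = 0.056), and exu was called with FPKM (-2.20, adjusted p = 0.015) and with the median of ratios (-3.01, adjusted p = 0.013). The estimates of grk and orb, 0.74 and -0.16, were not called in either fit. Gonads minus bodies, grk was the member called, with 2.62 ± 0.37 (adjusted p = 0.0062), beside 9.28% of all genes in either direction. That call was lost with TPM as deposited (2.37, adjusted p = 0.088) and in a fit of only the libraries compared (2.62, adjusted p = 0.051). Blocking by replicate number added calls for gcl (2.18, adjusted p = 0.0095), pgc (2.0, adjusted p = 0.023) and osk (1.83, adjusted p = 0.047), and without replicate 1 of the ovary 3 members were called.

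Ovary and female head set the tissue that holds the female germline against a female tissue without germ cells. In ovary 8 members were higher (25.1% of all genes) and 0 were lower (27.5%), with a median log2 fold change of 5.82 beside 0.14 over all genes. The values were 8.09 for osk, 7.13 for pgc, 7.08 for swa, 7.07 for nos, 5.90 for bcd, 5.74 for exu and 4.6 for orb, besides the 2.62 of gcl. For grk and stau no difference was called, with 0.21 ± 0.26 (limma, adjusted p = 0.56) and -0.39 ± 0.51 (adjusted p = 0.57). Both signs depend on the scaling, since grk was at -0.32 with the median of ratios and stau at 0.39 with TPM as deposited. The grk difference was called with FPKM, at 0.56 (adjusted p = 0.047).

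Testis and male head were compared in the same way. Orb and exu were higher in testis, with log2 fold changes of 5.27 ± 0.37 and 8.42 ± 0.59 (limma, adjusted p = 9e-07 and 7.8e-07), where 30.3% of all genes were higher. The 4 genes grk (-3.15), stau (-2.92), gcl (-2.79) and osk (-1.41) were lower in testis, where 46.2% of all genes were lower and the median over all genes was -0.65. With TPM as deposited, grk alone stayed lower, and the osk call was also lost with FPKM (adjusted p = 0.1), with the median of ratios (adjusted p = 0.15) and without replicate 2 of the testis (adjusted p = 0.065) or replicate 1 of the male head (adjusted p = 0.071). For pgc, -1.05 was not called (adjusted p = 0.075), whereas it was with the replicate block (adjusted p = 0.019), with a pseudocount of 0.1 (-1.89, adjusted p = 0.039) and without replicate 2 of the male head (-1.79, adjusted p = 0.0072). The estimates of nos, swa and bcd were 0.26, -0.13 and -0.01 and none was called, although nos was with the median of ratios (1.11, adjusted p = 0.012).

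No member was called between ovary and female body, but the female body mean relative to the ovary mean moved when single libraries were left out. Between ovary and female body 0 members were higher (0.12% of all genes) and 0 were lower (16.7%) by limma, and 0 had an unadjusted p under 0.05, against 3013 of all genes. All estimates were above 0 on the log2 scale, from 0.19 for grk to 0.70 for osk. As a percent of the ovary library with the same replicate number, the female body level of the members was 65.5 to 93.2% (median 76.5%) in replicate 1 and 56.0 to 85.5% (median 59.6%) in replicate 2. Leaving out a single library breaks this matching of replicate numbers. For bcd, at 69.6 and 56.0% when matched, the female body mean as a percent of the ovary mean then ranged widely. It was 32.8% without replicate 2 of the female body and 126% without replicate 2 of the ovary. The same left-out libraries gave 41.6 and 122% for gcl and 43.3 and 92.9% for osk. For stau the range was 46.6% (without replicate 1 of the ovary) to 128% (without replicate 2 of the ovary), and for the other 6 members it lay within 45.7 and 102%. For the 8 eggshell and yolk-uptake genes the medians were 69.2% in replicate 1 and 96.3% in replicate 2. In male heads these 8 genes stood at a median of 0.846 and 0.492% of their ovary level, and osk at 0.840 and 0.284% of its own. In testis the same figures were 0.161 and 0.0651% for the 8 genes and 0.215 and 0.0572% for osk, whereas grk was at 3.70 and 7.46% and stau at 21.8 and 14.7%.

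**Figure D3:**
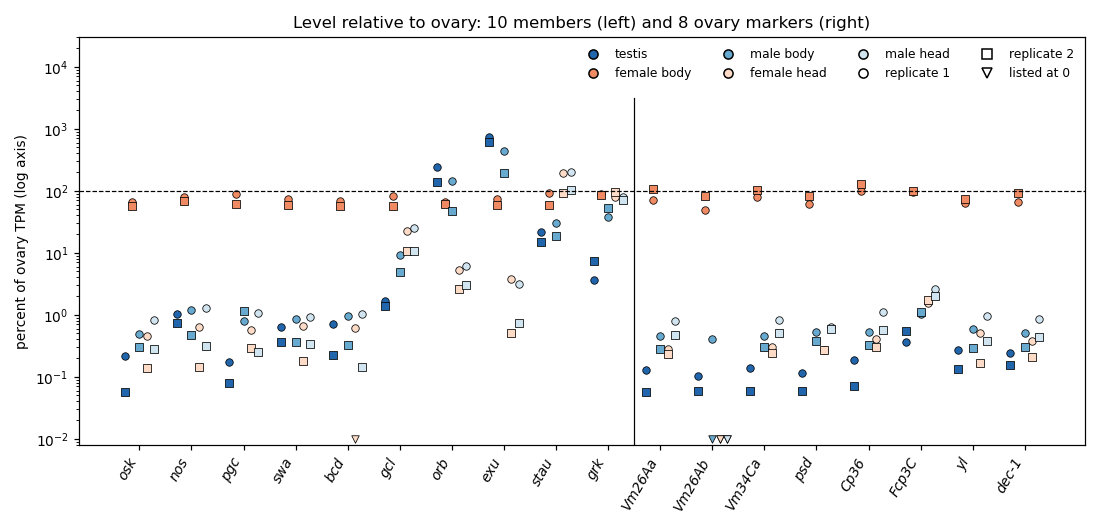
The level in each group as a percent of the ovary library of the same replicate number, on a log axis, for the 10 members and 8 eggshell and yolk-uptake genes. The dashed line is the ovary level, and triangles at the lower edge are values listed at 0; the female body lies at 56.0 to 93.2% for all members, osk, nos, pgc, swa and bcd are near or under 1% in all other groups, and orb and exu exceed 100% in testis.

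The replicates of the ovary differed in a way that the members shared. Replicate 2 was higher for 8 of the 10 and lower for the other 2, grk and pgc, at 0.979 and 0.826 times replicate 1. Ratios of replicate 2 over replicate 1 were 3.25 for bcd, 2.91 for gcl, 2.74 for stau, 2.09 for osk and between 1.46 and 1.86 for orb, nos, swa and exu, where the median over all genes tested was 0.919. In the female body the same 8 members were higher in replicate 2, with 2.62 for bcd, and grk and pgc were again lower, at 0.937 and 0.571. Libraries of the same replicate number deviated together over all genes.

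Over the 12 libraries, osk, nos, bcd, swa and pgc followed each other closely. Pearson's r of log2(TPM + 1) lay between 0.964 and 0.998 in the 10 pairs of these 5 members. Orb and exu formed a pair with r = 0.969, grk and stau had r = 0.787, and gcl lay between, with r = 0.884 to osk and 0.828 to grk. The 12 points come in 6 groups of 2, so that these values mostly restate the order of the groups. Among 10975 genes with a mean of at least 5 TPM, the genes most like osk were Cyp6a19 (r = 0.999), Vml and CG4586. For nos they were CG15570, zpg and clos, for swa clos, lok and gammaTub37C, for bcd dah, RecQ4 and fs(1)Ya, and for pgc CG13083, alphaTub67C and APC7. Zpg is a gap junction protein of the germline, and Vml and clos encode eggshell proteins. Around orb stood qua, sofe and Klp3A, around exu sip2, nmdyn-D7 and CG1503, around gcl Debcl, CG6175 and CG43313, around stau Deaf1, temp and Dsp1, and around grk asparagine-synthetase, CG14812 and CG31098. In each case r was at least 0.9906.

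The sequence upstream of the transcript start is shown for genes restricted to the ovary and female body (osk, bcd, swa). It is also shown for orb, which both gonads hold, and for grk, which is also listed in heads, with the part of Akap200 untested. Promoters of unlike listed levels can thus be set side by side. Orb has 4 annotated starts, and which of them is used in either gonad was not tested. Each window has 250 bases before and the first 10 bases of the most upstream annotated transcript, read from the RefSeq Release 6 genome (the assembly of dm6). The positions are 3R:8934876-8935135 on the + strand for osk, 3R:6759457-6759716 on the - strand for bcd, X:6365699-6365958 on the - strand for swa, 3R:23280847-23281106 on the - strand for orb and 2L:8433589-8433848 on the - strand for grk. Capitals mark matches on either strand to the TATA box, searched as TATAAA, to the initiator, searched as TCAGT, to the DNA replication-related element or DRE, searched as its palindrome TATCGATA, to the core of the promoter element called motif 1, searched as GGTCACAC, and to the E-box, searched as CAGCTG. No motif lies within another.
osk: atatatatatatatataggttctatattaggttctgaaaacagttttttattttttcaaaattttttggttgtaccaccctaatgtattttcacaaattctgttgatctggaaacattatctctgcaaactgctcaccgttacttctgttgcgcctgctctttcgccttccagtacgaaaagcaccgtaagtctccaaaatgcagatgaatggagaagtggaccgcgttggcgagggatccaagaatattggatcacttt
bcd: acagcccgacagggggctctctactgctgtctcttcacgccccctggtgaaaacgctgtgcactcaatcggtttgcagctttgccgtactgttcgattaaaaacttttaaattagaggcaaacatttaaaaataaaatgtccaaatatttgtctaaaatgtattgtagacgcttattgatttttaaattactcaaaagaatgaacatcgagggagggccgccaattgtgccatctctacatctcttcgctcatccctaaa
swa: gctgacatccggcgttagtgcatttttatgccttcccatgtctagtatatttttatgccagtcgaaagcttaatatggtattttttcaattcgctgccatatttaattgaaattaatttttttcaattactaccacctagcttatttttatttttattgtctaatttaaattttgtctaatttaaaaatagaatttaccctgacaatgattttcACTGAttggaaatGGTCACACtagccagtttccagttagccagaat
orb: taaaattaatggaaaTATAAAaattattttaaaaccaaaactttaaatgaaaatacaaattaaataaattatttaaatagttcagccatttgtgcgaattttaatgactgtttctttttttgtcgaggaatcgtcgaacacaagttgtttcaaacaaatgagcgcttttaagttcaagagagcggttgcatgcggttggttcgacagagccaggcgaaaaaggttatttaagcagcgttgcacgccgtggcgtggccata
grk: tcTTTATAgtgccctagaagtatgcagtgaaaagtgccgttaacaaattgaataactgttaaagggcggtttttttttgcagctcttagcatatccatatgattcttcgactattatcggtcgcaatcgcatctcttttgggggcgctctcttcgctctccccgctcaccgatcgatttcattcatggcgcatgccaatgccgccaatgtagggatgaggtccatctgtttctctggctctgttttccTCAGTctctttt
The osk and bcd windows held no match. In swa, the initiator letters were found on the other strand at -36 and the motif 1 core at -23, counted from the start with -1 as the base before it. A TATA box match stood at -235 in orb and, on the other strand, at -248 in grk, and an initiator match at -2 in grk. Over the first starts of all 10 members, the TATA box was in 4 windows, the initiator in 3, the DRE in 2, the motif 1 core in 2 and the E-box in 1. Of 13945 protein-coding genes, 43.5% held the TATA box letters, 46.0% the initiator, 8.56% the DRE, 5.34% the motif 1 core and 14.5% the E-box in the same window. These shares describe letters and not sites in use.

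Genes of the same pathways were counted from 4 lists, 64 genes in all, of which 61 were tested. The lists too were chosen with earlier results of these data known, so the shares of all genes do not test for an excess. In ovary over testis 48 were higher (39.3% of all genes tested were), 7 were lower (33.3% of all genes) and 6 were not called. In female over male bodies 38 were higher (27.5% of all genes), 6 were lower (32.3% of all genes) and 17 were not called. In heads 0 were higher (0.0975% of all genes) and 0 were lower (0.09% of all genes) by limma. There, 0 had an unadjusted p under 0.05, against 385 of all 13332 genes.

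Of 20 genes for mRNA localisation and translation, 13 were higher and 2 were lower in ovary than in testis. Over all genes these shares were 39.3% and 33.3%. The median log2 fold change was 2.99 beside 0.10 over all genes. In ovary over female head 13 were higher and 1 was lower (25.1% and 27.5% of all genes), with a median of 2.15. Wispy (wisp), the poly(A) polymerase that lengthens mRNA tails in the oocyte, had 176 and 528 TPM in ovary, against 1.49 and 1.24 TPM in testis, a log2 fold change of 7.02 ± 0.47 (limma, adjusted p = 9.7e-07). Its relative Gld2, which acts in the male germline, had 1.35 and 0.559 TPM in ovary, against 107 and 203 TPM in testis (-6.28 ± 0.40, adjusted p = 7.7e-07). The Orb relative orb2, needed in spermatogenesis, had 5.54 and 7.40 TPM in ovary, against 370 and 639 TPM in testis (-6.04 ± 0.40). The paralogs wisp and Gld2 thus had opposite signs, and orb, the paralog of orb2, was at -0.86 and not called. The germline gene otu was at 6.89 ± 0.36 and the helicase gene me31B, whose protein represses translation of osk mRNA, was at 4.45 ± 0.30. Cup, a binding partner of eIF4E that represses osk translation, was listed at 0 in 7 of 12 libraries, both ovaries included, and BicC had 4.002 TPM in female body replicate 1 against 367 TPM in replicate 2. Both stayed in the fit and in the counts, and neither was called in ovary over testis.

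Of 15 genes for germ plasm assembly, 12 were higher and 3 were lower in ovary than in testis (39.3% and 33.3% of all genes). The median log2 fold change was 2.72. In ovary over female head 9 were higher and 1 was lower (25.1% and 27.5% of all genes), with a median of 1.38. The vasa gene (vas), which encodes a helicase of the germ plasm, had 241 and 251 TPM in ovary, against 6.07 and 7.12 TPM in testis (5.03 ± 0.28, limma, adjusted p = 4.3e-07). The piRNA-binding proteins piwi and aub were at 5.66 ± 0.27 and 3.40 ± 0.32. The actin nucleators cappuccino (capu) and spire (spir), needed to bring osk mRNA to the posterior pole, were lower, with 10.8 and 29.2 TPM of capu in ovary, against 191 and 304 TPM in testis. Their log2 fold changes were -3.68 ± 0.44 and -2.62 ± 0.47, and the kinase gene LKB1 was at -1.05 ± 0.25, a call lost with TPM as deposited (adjusted p = 0.051) and in a fit of only the libraries compared (adjusted p = 0.054).

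Of 21 genes for the dorsal-ventral and terminal systems, 20 were higher and 1 was lower in ovary than in testis. Over all genes these shares were 39.3% and 33.3%, and the median log2 fold change of the list was 3.25. In ovary over female head 11 were higher and 4 were lower (25.1% and 27.5% of all genes), with a median of 1.30. In testis over male head 1 was higher and 13 were lower (30.3% and 46.2% of all genes), with a median of -2.07. The rise over testis thus did not hold over female head for the whole list. Egfr, the receptor of Gurken, was at 2.0 ± 0.34 in gonads and 0.08 ± 0.34 in bodies, where it was not called. The eggshell genes fs(1)M3 and clos were at 6.31 ± 0.25 and 5.24 ± 0.25, and nudel (ndl), which encodes a protease that starts the dorsal-ventral cascade, was at 5.03 ± 0.19. By contrast, rhomboid (rho), which encodes a protease that releases Egfr ligands, was lower (-0.70 ± 0.27, adjusted p = 0.043). That call was lost with TPM as deposited (adjusted p = 0.19), in a fit of only the libraries compared (adjusted p = 0.091) and without either ovary library, replicate 2 of the testis (-0.34) or any single library of the male body or the heads, with adjusted p between 0.063 and 0.28. Of 8 embryonic targets, 5 were tested, 3 were higher and 1 was lower in ovary (39.3% and 33.3% of all genes), and Kr, tll and eve did not reach the minimum. The mRNA of hunchback (hb), which females also load into the egg, had 23.8 and 137 TPM in ovary, against 0.420 and 0.974 TPM in testis (5.13 ± 0.77, limma, adjusted p = 0.00021), and caudal (cad) was at 2.47 ± 0.62. The cad call was lost with the median of ratios (0.86, adjusted p = 0.12) and without replicate 1 of the testis (1.85, adjusted p = 0.051). The gap gene gt was at 0.60 ± 0.24 (adjusted p = 0.042) with at most 0.686 TPM in ovary, and otd, with at most 0.0423 TPM in ovary, was at -1.91 ± 0.29. The gt call was lost with TPM as deposited, FPKM, the median of ratios and eBayes without a trend (adjusted p of 0.053 to 0.29), and without any single library of the ovary, testis or female head (adjusted p of 0.05 to 0.14). Leaving out single libraries gave 1 to 3 of these targets higher in ovary and 1 to 2 lower.

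**Figure D4:**
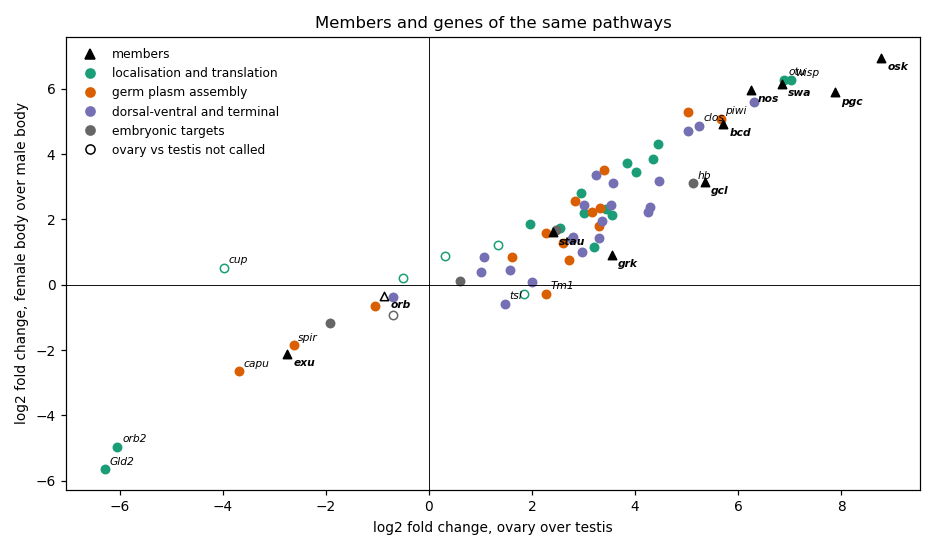
The log2 fold change in gonads (x axis, ovary over testis) against that in bodies (y axis, female over male body) for the 10 members (triangles) and 61 genes of 4 pathway lists (circles, colour gives the list). Open symbols were not called in gonads; osk is at 8.78 and 6.95, exu at -2.75 and -2.12, and Gld2 and orb2 are the lowest, at -6.28 and -6.04 in gonads.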

How the data were processed

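Of the 37 samples of the study, the 12 PolyA libraries were used and 25 were not analysed here. The submitters' processing notes name cutadapt 1.15 and 1.18, STAR 2.6.1a, Cufflinks and StringTie 2.0. The authors mapped reads to dm6 with Ensembl release 88 and deposited a table per library with TPM, FPKM and mean coverage of 17559 genes. The deposited TPM sums to 1000000 per library and keeps no read counts. The deposited FPKM was an alternative, and the deposited coverage was used only as a measure of depth.

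TPM was rescaled over the genes outside the mitochondrial genome. Contrasts were fitted to log2(TPM + 1) with limma 3.58.1 in R 4.3.3 (one mean per group, 12 libraries, eBayes with a trend, two-sided). Tables were made with Python 3.11.15, numpy 2.4.6 and pandas 2.3.3, and plots with matplotlib 3.10.9. The limma fit was first run on simulated tables with known changes, and then on the real tables. Same-numbered libraries deviated together in all 15 pairs of groups (r of 0.278 to 0.725, median 0.422, over genes), so the replicate numbers from the labels pair the libraries, and a fit with the number as a block was run. Spearman's correlation between replicates was 0.946 to 0.970. The number of reads behind a gene was judged only from coverage. Alternatives were TPM as deposited, FPKM, the median of ratios over 6739 genes, a pseudocount of 0.1, no minimum or a mean of at least 5, only the libraries compared, the block, eBayes without a trend, and each library left out.

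The members and the lists were chosen with earlier results of these data known. All 10 members are named, with up to 3 called rises and 3 called falls per list in ovary over testis, and the 3 genes most correlated with each member. Outside that rule, Egfr, cup, BicC, Kr, tll and eve were named after their values were seen.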

Additional observations from a re-analysis of the deposited data

Results flagged for a closer look

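The sex difference of 7 members differed between tissues by a limma test of the difference itself, 1 in gonads minus bodies and 6 in bodies minus heads. Of all genes, 9.28% and 46.5% were called in these tests, in that order. The grk call was lost with TPM as deposited (adjusted p = 0.088) and in a fit of only the libraries compared (adjusted p = 0.051). The gcl call was lost with TPM as deposited (adjusted p = 0.056). For grk the log2 difference of gonads minus bodies was 2.62, with a log2 fold change of 3.55 in gonads and 0.92 in bodies. Bodies minus heads, the log2 difference was 7.67 for osk, 6.51 for nos, 5.12 for bcd, 6.49 for swa, 3.23 for gcl and 6.17 for pgc, where the fold changes in heads were between -0.72 and -0.06 on the log2 scale. Groups of 2 libraries are too small for a check of single outlying libraries.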

How the results depend on the processing

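TPM keeps no read counts, so the depth behind low values is known only from coverage. Other limits are 2 libraries per group, a mitochondrial gene that takes a changing share of the deposited TPM, and the choice of scaling. That choice did not decide small differences only. In ovary over testis, the median of ratios moved stau from 2.40 to 0.83 and cad from 2.47 to 0.86, and both calls were lost. It moved orb from -0.86 to -2.49, which was called. Among the 10 members, 28 of 720 calls (9 alternatives, 80 tests each) and 16 of 960 calls (each library left out) differed from those reported, and none of the 36 changes of sign was called. With FPKM or the median of ratios, 2 members were lower in ovary than in testis in place of 1, and with the median of ratios 2 were lower in female than in male bodies in place of 1, while 11 pathway genes were lower in ovary in place of 7. With TPM as deposited, 1 member was lower in testis than in male head in place of 4. The number of members whose sex difference differed between gonads and bodies was 0 with TPM as deposited, 0 with only the libraries compared and 4 with the replicate block, in place of 1. The block changed 6 member calls, all given above, and no other member call. The median of ratios shifted the median of all genes in ovary over testis to -0.81 against 0.10, and the share of called genes that were higher to 27.2% against 54.1%. For bodies these were -0.83 against -0.09 and 22.2% against 46.0%, and for testis over male head 0.35 against -0.65 and 58.4% against 39.6%. For gonads minus bodies the share was 26.1% against 59.5%, with 8.1% for TPM as deposited, and for bodies minus heads 19.6% against 45.4%.

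Signs changed as follows, and the cause was not tested. In heads, exu was at 0.02 with FPKM and 0.01 with the median of ratios, and gcl at 0.04 with the median of ratios. In ovary over female head, grk was at -0.32 with the median of ratios and stau at 0.39 with TPM as deposited. In testis over male head, bcd was at 0.13 with TPM as deposited, 0.08 with FPKM, 0.31 with the median of ratios and 0.01 with a pseudocount of 0.1, and swa at 0.32, 0.22 and 0.63 with the first 3 of these. With the median of ratios, nos was at -0.33 in gonads minus bodies and grk at -0.20 in bodies minus heads.

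Without single libraries, in female over male body orb ranged from -0.75 to 0.04. In female over male head stau ranged from -0.35 to 0.10, exu from -0.98 to 0.85, gcl from -0.28 to 0.15, pgc from -1.03 to 0.46. In ovary over female head stau ranged from -1.11 to 0.32. In ovary over female body bcd ranged from -0.17 to 1.5, stau from -0.29 to 1.14, gcl from -0.20 to 1.32. In testis over male head nos ranged from -0.09 to 0.61, bcd from -0.13 to 0.11, swa from -0.33 to 0.08. In gonads minus bodies nos ranged from -0.12 to 0.73, bcd from -0.06 to 1.62. In bodies minus heads orb ranged from -0.56 to 0.24. Member counts ranged from 8 to 8 higher and 1 to 2 lower in ovary over testis, 6 to 8 higher and 0 to 1 lower in female over male body, 3 to 5 lower in testis over male head, 1 to 3 called in gonads minus bodies and 6 to 7 in bodies minus heads. Pathway genes ranged from 46 to 50 higher and 6 to 8 lower in ovary over testis. The median over members of the female body level was 65.1% of the ovary mean and ranged from 49.9% without replicate 1 of the ovary to 91.3% without replicate 2 of the ovary.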
